A study of Mus musculus with 10 samples.

Results

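Rosiglitazone-only peaks were accessible regions whose read counts were higher after 3 days of rosiglitazone than in Control cells, and which stayed near or below the Control level after forskolin. A peak was a member when its mean over the Rosi3D libraries was at least 2 CPM (each count scaled by the total count in peaks of its library), that mean was at least 75% above the Control mean with 0.25 CPM added to both, both Rosi3D libraries lay above both Control libraries, and the means at all 3 forskolin times were less than 25% above Control. The members were thus chosen by the measured counts of these libraries. The rule found 1579 members among 122984 peaks. All 10 libraries entered the rule, so the members' differences between Rosi3D and Control, between forskolin and Control, between Rosi3D and forskolin and between forskolin times are descriptions here and not tests. The assay was ATAC-seq, which reads open chromatin from the sites where a transposase can cut and tag DNA, and the cells were the immortalized mouse adipocyte progenitor line MAP. All 5 groups had been differentiated for 2 days with insulin, IBMX, dexamethasone and 1 µM rosiglitazone and for 2 more days with insulin and 1 µM rosiglitazone, so the Control cells had met the drug as well. Treatment of the adipocytes began between day 7 and day 8. Rosi3D cells then received rosiglitazone for 3 days, FSK4h, FSK1D and FSK3D cells received forskolin for 4 hours, 1 day and 3 days, and Control cells received vehicle; the treatment doses were not given in the labels. Each group had 2 libraries (S9 and S10 for Rosi3D, S3 and S4 for FSK4h, S5 and S6 for FSK1D, S7 and S8 for FSK3D, S1 and S2 for Control), each made from 10000 sorted nuclei. The labels do not say whether a group's libraries were grown apart, so the p-values below measure the spread between these libraries, which may be technical.

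Rosiglitazone is a thiazolidinedione ligand of PPARγ, the nuclear receptor that drives adipocyte differentiation and the storage of fatty acids. PPARγ binds DNA as a heterodimer with RXR at direct repeats of the hexamer AGGTCA spaced by a single base. Forskolin activates adenylyl cyclase, raises cyclic AMP and mimics the β-adrenergic signal that starts lipolysis and thermogenesis in fat cells. Peaks that met the rosiglitazone part of the rule but reached its limit on forskolin are mentioned here for contrast.

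Library depth ran between 10410233 counts in peaks (S1, Control) and 18935287 (S6, FSK1D), and both Control libraries were among the 3 shallowest. The strongest single peak took 1.92% to 1.96% of the counts in Rosi3D libraries and 2.48% to 2.87% in Control libraries. Libraries of a group differed by 2.22 to 3.37 times counting noise (chi-square per degree of freedom over peaks), with the highest value in FSK3D. Marker genes of 5 cell types were summed over their tested peaks as a check of the labelled cells. The sum for 10 adipocyte genes was 1318 to 1356 CPM in Rosi3D and 996.8 to 1064 CPM in Control libraries. That for 7 progenitor genes was 270.8 to 289.6 CPM in Rosi3D and 269.9 to 286.7 CPM in Control. Of the 123 adipocyte peaks 12, in 3 genes, were members, and of the 52 progenitor peaks 3 were. Members were chosen for higher counts in Rosi3D than in Control, so sums that hold them are not independent of the rule. Macrophage genes gave 94.43 to 98.24 CPM in Rosi3D and 64.65 to 72.81 CPM in Control libraries, over 26 peaks in 5 of 6 genes; 2 of the peaks, both of 1 gene, were members. Endothelial genes gave 109.3 to 112.9 CPM in Rosi3D and 111.6 to 114.8 CPM in Control libraries, with no member. Muscle genes gave 33.33 to 35.47 CPM in Rosi3D and 23.63 to 26.43 CPM in Control with 1 member, in 2 of 4 genes with tested peaks. At 4 hours, 1 day and 3 days of forskolin the group sums were 101.2, 89.12 and 87.42 CPM for macrophage genes. They were 145.0, 131.1 and 127.8 CPM for endothelial genes and 26.81, 30.22 and 30.59 CPM for muscle genes. Adipocyte genes gave 1027, 964.5 and 973.2 CPM at these times, and progenitor genes 286.7, 304.8 and 291.5 CPM. The part of these marker levels in the results was not tested, and in bulk libraries more cells with an open site and a more open site per cell cannot be told apart.

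At start sites, 30 members overlapped 38 RefSeq promoter windows (250 bases before to 50 after a transcription start, GRCm38.p6, the build of the deposited peaks). Of the 30, 18 overlapped windows of 18 protein-coding genes. The share of other peaks at such windows is not given here, so the count is not read as low or high. Some genes had no window in the table used, and the windows of a chromosome named further below were not used. The 4 promoter stretches below are the upstream parts of windows that lie inside a member for at least 100 bases. Those of Cd36 and Chchd10 are shown because they held the hexamer AGGTCA in that upstream part, and those of Egfl7 and Tmcc3 because they had the smallest adjusted p between Rosi3D and Control among the rest. All are written 5′ to 3′ along the gene's strand, and capitals mark the hexamer, which reads TGACCT on this strand. Cd36 encodes a membrane transporter of long-chain fatty acids, and its stretch lies at chr5:17835897-17836146 on the minus strand. Chchd10 encodes a protein of the mitochondrial intermembrane space, and its stretch lies at chr10:75932973-75933129 on the plus strand. Egfl7, a secreted factor best known from endothelium, has its stretch at chr2:26586441-26586635 on the plus strand, and that of Tmcc3 lies at chr10:94576013-94576262 on the plus strand.
Cd36: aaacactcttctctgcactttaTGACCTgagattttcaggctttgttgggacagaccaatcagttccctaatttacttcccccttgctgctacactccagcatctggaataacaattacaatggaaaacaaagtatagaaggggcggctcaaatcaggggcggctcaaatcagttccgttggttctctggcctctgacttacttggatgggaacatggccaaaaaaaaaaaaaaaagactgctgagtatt
Chchd10: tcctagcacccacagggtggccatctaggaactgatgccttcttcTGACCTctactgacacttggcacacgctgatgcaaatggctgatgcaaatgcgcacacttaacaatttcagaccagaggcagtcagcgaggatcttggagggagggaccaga
Egfl7: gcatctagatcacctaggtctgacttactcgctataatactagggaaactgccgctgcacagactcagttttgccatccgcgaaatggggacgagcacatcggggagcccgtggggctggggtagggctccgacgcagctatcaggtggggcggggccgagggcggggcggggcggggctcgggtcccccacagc
Tmcc3: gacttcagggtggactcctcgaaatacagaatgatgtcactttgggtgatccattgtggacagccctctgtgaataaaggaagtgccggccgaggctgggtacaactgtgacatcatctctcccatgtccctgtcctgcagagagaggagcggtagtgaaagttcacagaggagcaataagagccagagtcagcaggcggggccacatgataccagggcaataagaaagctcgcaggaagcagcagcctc

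On the members behind these stretches, the Cd36 promoter peak had 15.7 and 13.4 CPM in Rosi3D libraries, against 6.05 and 7.28 CPM in Control libraries, and lay between 4.85 and 6.60 CPM in all 6 forskolin libraries. The Egfl7 promoter peak had 33.3 and 34.0 CPM in Rosi3D, against 16.5 and 14.8 CPM in Control, with 13.9 to 17.0 CPM under forskolin. The Tmcc3 peak had 18.8 and 17.3 CPM in Rosi3D, against 8.17 and 10.0 CPM in Control, with 9.14 to 12.2 CPM under forskolin. In each of these 3 peaks the Rosi3D libraries stood clear of the other 8. The Chchd10 peak was weaker and its Control libraries were uneven, with 6.05 and 6.32 CPM in Rosi3D and 1.63 and 4.21 CPM in Control. Over all 38 windows, AGGTCA on either strand was present in 11 (28.9%), against 16.3% of the 32851 windows in the table. Some of the 38 windows overlap each other, and the share was not tested. The full direct repeat, the hexamer followed by any base and the hexamer again, was in none of the 38 windows and in 0.0396% of all windows, and a looser spelling with the fourth base of each hexamer free, chosen after the strict one, was in none of the 38 and in 0.381% of all. TTGCNNAA, a C/EBP spelling, was in 7.89% of the windows at members and 10.8% of all windows. The cyclic AMP response element TGACGTCA was in none of the 38 and in 1.79% of all, and its shorter form TGACG was in 5.26% of windows at members and 20.8% of all, of which the full element is a part. At members and in all windows, TGANTCA (AP-1) was in 2.63% and 7.81%, ACANNNTGT (glucocorticoid receptor) in 2.63% and 6.85%, CCCTC, searched as a control, in 55.3% and 66.0%, and the palindromic NFI motif in 0 of 38 and 0.0365%. These letters describe 300-base windows, not the sequence of the members, nearly all of which lie elsewhere.

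Across the 1579 members, the median level was 4.08 CPM in S9 and 3.80 CPM in S10, the Rosi3D libraries, against 1.73 CPM in S1 and 1.69 CPM in S2, the Control libraries. Under forskolin the median was 1.20 and 1.27 CPM at 4 hours, 1.47 and 1.37 CPM at 1 day and 1.47 and 1.30 CPM at 3 days. All 6 forskolin libraries had medians below both Control libraries. Both Rosi3D libraries lay above all 8 other libraries in 1562 members (98.9%), and S9 lay above S10 in 948 (60.0%). Most members changed modestly: the median ratio of Rosi3D to Control was 2.03, with quartiles at 1.85 and 2.35, and 844 members (53.5%) reached 2-fold. A ratio of 3 was reached by 108 members, of 4 by 14 and of 5 by 6, and the highest was 7.07, at Cd36. These regions were also weak, as the median group mean was 3.91 CPM in Rosi3D and 1.69 CPM in Control, and the highest was 49.33 CPM in Rosi3D.

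**Figure D1:**
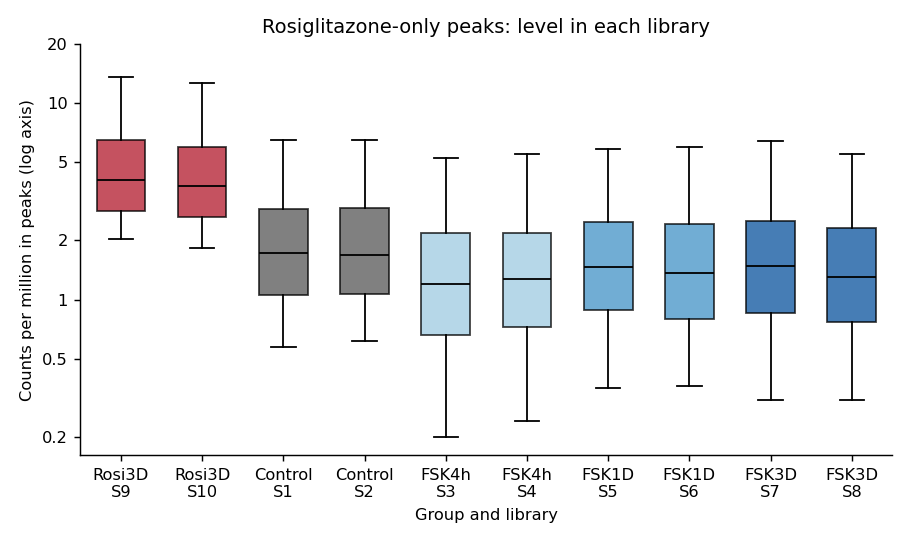
Level of the 1579 members in each of the 10 libraries, in CPM on a log axis. Boxes span the quartiles with a line at the median, and whiskers reach the 5th and 95th percentiles over members. The Rosi3D medians are 4.08 and 3.80 CPM and the Control medians 1.73 and 1.69 CPM, and the 6 forskolin medians lie between 1.20 and 1.47 CPM.

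All 1579 members passed the filter on low counts, as did 118954 of all peaks. In the edgeR quasi-likelihood fit over all tested peaks, 630 members were called higher in Rosi3D than in Control at an adjusted p below 0.05, where 3.22% of all tested peaks were higher and 3.34% lower; since this contrast chose the members, nothing is read from that count. The called members had a median Rosi3D mean of 6.81 CPM and the uncalled ones 2.98 CPM. The count depended on every library of the contrast: it was 228 without S9, 280 without S10, 287 without S1, 291 without S2, and 255 with DESeq2. The count in Rosi3D against Control was 787 with scaling by column sums alone and 893 in a fit of the 2 groups. Against FSK3D, 1348 members were called higher in Rosi3D, where 8.82% of all tested peaks were. Of the members 627 were called in both contrasts, 3 against Control alone, 721 against FSK3D alone and 228 in neither. The rule's limits place Rosi3D above FSK3D, and the same split over all tested peaks is not given here, so nothing is read from it. The members were also chosen again without 1 library, and that library was then read. Among 1692 peaks chosen without S9, the left-out S9 stood at a median of 1.88 times Control and lay above it in 91.5%, while the Rosi3D library used had 2.05. Among 2290 peaks chosen without S10, the median was 1.69 and 87.7% lay above Control, against 2.06 in the library used. With a Control library left out, the Rosi3D mean was a median of 1.93 times S1 and 2.01 times S2. The share that would again reach the 75% threshold was 58.4% for S9 and 45.4% for S10. In all 4 of these repeats, 87.7% to 95.9% of the chosen peaks kept the direction in the left-out library. The other group of each ratio still helped to choose the peaks. The direction was thus partly fixed in advance, and nothing is read from these shares.

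At the threshold on the ratio, the 3 nearest members had ratios of 1.7504 to 1.7505 and the 3 nearest peaks outside 1.7496 to 1.74996. Within 5% of that threshold lay 335 members and 405 peaks that failed it alone. On the Rosi3D level, the nearest members had 2.0008 to 2.0022 CPM and the nearest others 1.9963 to 1.997 CPM. For the forskolin limits, the nearest members reached 1.2476 to 1.2495 (FSK4h), 1.2494 to 1.2499 (FSK1D) and 1.2475 to 1.2498 (FSK3D) times Control, and the nearest others 1.2502 to 1.2524, 1.251 to 1.2514 and 1.2503 to 1.2552 at the same times. Of 5722 peaks that met the rosiglitazone criteria, 4143 reached the forskolin limit at 1 or more times, 2316 of them at all 3.

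Under forskolin, no member was called above Control at any time in the main fit. Of all tested peaks, 18.5% (FSK4h), 12.9% (FSK1D) and 8.49% (FSK3D) were. The limit on each forskolin mean leaves little room for such a call. At 4 hours 334 members were called lower than Control (21.2%, against 12.9% of all tested peaks), at 1 day 193 (12.2%, against 9.84%) and at 3 days 156 (9.88%, against 5.34%). The median log2 fold change of the members was −0.56 for FSK4h, −0.38 for FSK1D and −0.34 for FSK3D, each over the same Control libraries. In all, 434 members were called lower in 1 or more forskolin groups, 76 in all 3, and 1145 in none. The same split over all tested peaks is not given here, so these 3 numbers are not read as low or high. The counts fell at every time when S1 or S2 was left out. Without S2 they then included calls above Control, as did the FSK1D count without S1. Each count also fell when either library of its own forskolin group was left out. With DESeq2 the counts were 228 for FSK4h, 123 for FSK1D and 106 for FSK3D. These counts share the Control libraries with the rule, which held the forskolin means down, and so are a description.

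The limits on the 3 forskolin means used the values compared between forskolin times, so these counts are a description, and nothing is read from them. Between 3 days and 4 hours of forskolin, 59 members were called higher and 18 lower, where 4.38% of all tested peaks were higher and 6.74% lower. The members' median log2 fold change of FSK3D over FSK4h was 0.16, and that of all tested peaks −0.01. The peaks that met the rosiglitazone criteria but reached the forskolin limit had a median of −0.10 for the same fold change. The comparison of 1 day with 4 hours gave 42 members higher and 12 lower, against 2.58% and 2.99% of all tested peaks, with a median of 0.13 in members and −0.01 in all. Between 3 days and 1 day edgeR called no member, where 0.187% of all tested peaks were called; 111 members had an unadjusted p below 0.05 and DESeq2 called none. The edgeR count was 2 without S4 and 7 without S7. Single libraries weighed on these counts. The 77 members called between 3 days and 4 hours became 28 without S3 and 49 without S7, and 38 with DESeq2. The 54 called between 1 day and 4 hours became 19 without S3, 33 without S4, 10 without S5 and 14 without S6, and 15 with DESeq2.

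**Figure D2:**
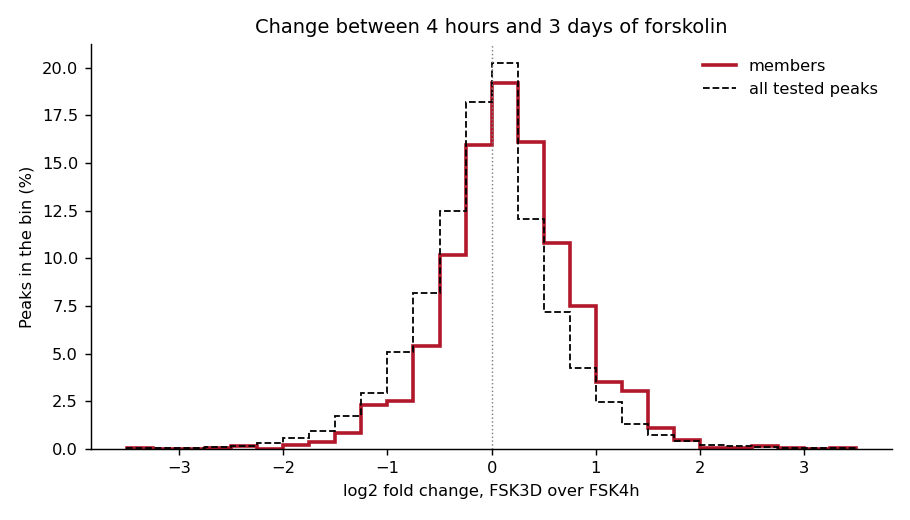
Distribution of the log2 fold change of FSK3D over FSK4h (x axis, bins of 0.25, values beyond 3.5 placed in the end bins) as the percentage of peaks in each bin (y axis), for the 1579 members and for all 118954 tested peaks. The members' curve sits to the right, with a median of 0.16 against −0.01, and the rule had limited the members' mean at both times.

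Among members called between FSK3D and FSK4h, those with the largest log2 fold changes included the ones near Agap1, Fyn, Rasa3 and Irf1. The peak in Fyn, which encodes a Src-family kinase, had 2.89 and 2.53 CPM at 3 days, against 0.531 and 0.484 CPM at 4 hours (log2 fold change 2.40, SE 0.439), with 2.69 and 1.99 CPM in Control. It had its lowest level at 4 hours of forskolin, and its values at 3 days overlapped those of Control. The peak 14.8 kb from Irf1, an interferon-responsive transcription factor, had 3.38 and 3.22 CPM at 3 days, against 0.730 and 0.908 CPM at 4 hours (log2 fold change 1.99, SE 0.368), beside 1.83 and 3.45 CPM in Control and 6.26 and 6.14 CPM in Rosi3D. The Agap1 peak, in a gene for an Arf GTPase-activating protein, had 1.84 and 1.30 CPM at 3 days and 0.266 and 0.121 CPM at 4 hours (log2 fold change 3.00, SE 0.621). Its libraries at 4 hours held 4 and 2 counts, so the size of that change is imprecise. In the other direction, a peak on chromosome 10 (start 23600700), 184 kb from the nearest gene end, had 0.307 and 0.153 CPM at 3 days, against 1.13 and 1.39 CPM at 4 hours (log2 fold change −2.38, SE 0.567). This peak had 8.09 and 7.12 CPM in Rosi3D and 2.02 and 1.99 CPM in Control, so all forskolin libraries lay below Control while the Rosi3D libraries lay highest. The peak in Epha3, an ephrin receptor gene, had 0.184 and 0.153 CPM at 3 days and 0.730 and 1.27 CPM at 4 hours (log2 fold change −2.51, SE 0.696).

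Cd36 held more members than any other gene. Of its 24 tested peaks 8 were members, and 7 others met the rosiglitazone criteria but also reached the forskolin limit. The member with the highest ratio of all lay 6.66 kb past the gene's end on chromosome 5 (start 17774858), with 6.05 and 3.50 CPM in Rosi3D and 0.384 and 0.536 CPM in Control, a log2 fold change of 3.22 (SE 0.543). All 6 forskolin libraries had 0.118 to 0.598 CPM there, and none overlapped Rosi3D. Its neighbour at 17775306 had 4.29 and 4.85 CPM in Rosi3D and 1.06 and 0.843 CPM in Control (log2 fold change 2.17, SE 0.453). Just upstream of the RefSeq start, 0.68 kb away, the peak at 17836422 had 7.67 and 6.57 CPM in Rosi3D and averaged 1.35 ± 0.146 CPM in Control (SD, n = 2; log2 fold change 2.27, SE 0.345), with 1.04 to 1.80 CPM under forskolin. The promoter peak itself, whose sequence is given above, was the strongest member of the gene and had a smaller log2 fold change, 1.01 (SE 0.199). Further members lay 2.46 and 49.1 kb downstream of the start and 12.0 and 83.3 kb upstream of it, with log2 fold changes of 1.29, 1.30, 1.83 and 1.83. Between these lay peaks that behaved otherwise: the one 44.3 kb upstream averaged 2.05 CPM in Rosi3D and 5.11 CPM in FSK4h, against 0.518 CPM in Control (log2 fold change of FSK4h over Control 3.20). The gene bounds used reach further upstream than the RefSeq start used here. The peaks 0.68, 12.0 and 44.3 kb upstream of that start thus lie inside the gene body. Members and peaks that met the rosiglitazone criteria but reached the forskolin limit thus lay side by side in 1 gene. That limit is a ratio of means and needs no call. The peak 13.0 kb upstream reached it at 1.26 times Control in FSK4h and was not called there.

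**Figure D3:**
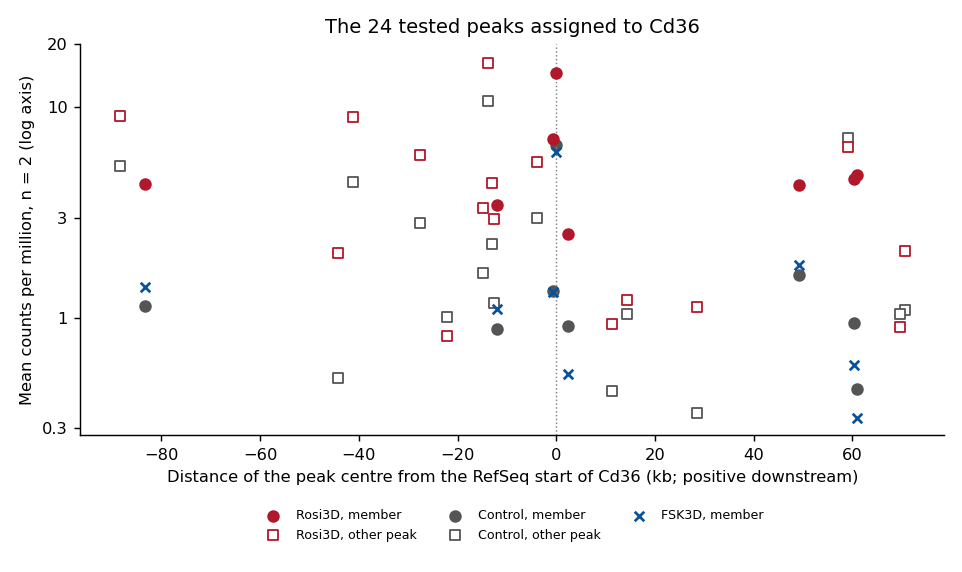
Mean CPM (log axis, n = 2 libraries a group) of the 24 tested peaks assigned to Cd36, by distance of the peak centre from the RefSeq start in kb. Filled circles are the 8 members and open squares the other 16 peaks, with Rosi3D in red and Control in grey, and crosses give FSK3D at the members. At the 8 members the Rosi3D means lie between 2.51 and 14.6 CPM, above their Control and FSK3D means.

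Other genes of fatty acid handling carried members too. Fabp4, which encodes the adipocyte fatty acid-binding protein, had 3 members among 10 tested peaks. Another 5 met the rosiglitazone criteria but reached the forskolin limit, and 9 of the 10 were called higher in Rosi3D than in Control. A gene's end here and below is whichever bound of the gene lies nearer, and may be the side where transcription starts. The member 5.27 kb outside the gene, on the side of higher coordinates (chromosome 3, start 10213607), had 44.9 and 43.1 CPM in Rosi3D. It had 24.6 and 21.8 CPM in Control (log2 fold change 0.83, SE 0.127). The member at the gene's end (10204815) had 30.0 and 30.5 CPM in Rosi3D and 12.4 and 14.6 CPM in Control (log2 fold change 1.06, SE 0.142). The 6 forskolin libraries stayed between 21.6 and 29.4 CPM at the member outside the gene. At the one at the gene's end they stayed between 13.4 and 16.7 CPM. These values were close to Control. Angptl4, a secreted inhibitor of lipoprotein lipase, had its member 1.07 kb from the gene's end. That member had 15.4 and 14.7 CPM in Rosi3D and 5.48 and 4.83 CPM in Control (log2 fold change 1.45, SE 0.208). Of the 7 tested peaks of Angptl4, 2 others met the rosiglitazone criteria but reached the forskolin limit. Over the whole list for fatty acid uptake and triglyceride synthesis, 17 of 247 tested peaks were members (6.88%, against 1.33% of all tested peaks), 11 of them at Cd36 and Fabp4 and the rest at Acsl1, Agpat2, Agpat3, Angptl4, Fabp5 and Gpd1. In that list 45 peaks were called higher in Rosi3D and 5 lower, and 28 peaks that met the rosiglitazone criteria also reached the forskolin limit. The median log2 fold change over its 247 peaks was 0.24, against −0.0042 over all tested peaks. The list of PPAR targets, which overlaps it, had 18 members among 412 tested peaks (4.37%), with 87 peaks called higher and 7 lower and a median log2 fold change of 0.26; separately counted, 66 of its peaks met the rosiglitazone criteria and reached the forskolin limit.

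G0s2, which encodes an inhibitor of adipose triglyceride lipase, had 2 members next to each other. The one 1.32 kb from the gene (chromosome 1, start 193270420), had 33.9 CPM in both Rosi3D libraries and 10.4 and 10.7 CPM in Control (log2 fold change 1.58, SE 0.150). The one at the gene's end (193271384) had 15.9 and 16.2 CPM in Rosi3D and 3.94 and 4.98 CPM in Control (log2 fold change 1.73, SE 0.213). Under forskolin the member at 193270420 had 6.64 and 8.17 CPM at 4 hours, 11.8 and 10.7 CPM at 1 day and 11.2 and 9.52 CPM at 3 days, with the lowest values at 4 hours. Plin1, the gene of the droplet coat protein perilipin 1, had 1 member of 7 tested peaks, with 4.36 and 4.17 CPM in Rosi3D and 0.865 and 2.30 CPM in Control. The lipid droplet and lipolysis list had 4 members among 157 tested peaks (2.55%), the fourth at Mgll, and 34 of its peaks were called higher and 3 lower, with a median log2 fold change of 0.31.

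The lists of de novo lipogenesis and of fatty acid oxidation genes both had members. At Acacb, the gene of the mitochondria-associated acetyl-CoA carboxylase, counted in the lipogenesis list, 3 members lay within 11.5 kb. The member at the gene's end (chromosome 5, start 114146032) had 19.1 and 18.0 CPM in Rosi3D and 7.11 and 9.04 CPM in Control (log2 fold change 1.09, SE 0.182). The one 11.1 kb inside the gene had 9.35 and 9.39 CPM in Rosi3D and 3.46 and 4.75 CPM in Control. Elovl6, a fatty acid elongase gene, held the other 2 of the 5 members found among 167 peaks of the de novo lipogenesis list (2.99%; 13 peaks called higher, 9 lower; median log2 fold change 0.07). In Hadhb, the gene of a mitochondrial trifunctional protein subunit, the member had 23.6 and 22.5 CPM in Rosi3D and 9.70 and 10.7 CPM in Control (log2 fold change 1.06, SE 0.165), with 6.07 to 8.35 CPM in all 6 forskolin libraries, below Control. Near Ppara, whose product switches on fatty acid oxidation genes, a peak 14.2 kb away had 19.9 and 26.0 CPM in Rosi3D and 9.70 and 8.73 CPM in Control (log2 fold change 1.22, SE 0.178), and 4.24 to 8.41 CPM under forskolin. Both of these peaks were lower under forskolin than in Control in every library. The fatty acid oxidation list had 5 members of 110 tested peaks (4.55%), at Acot1, Eci2, Hadhb, Pdk4 and Ppara, with 21 peaks called higher and 2 lower and a median log2 fold change of 0.20.

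Among regulators the share of members was near that of all tested peaks. The adipocyte transcription factor list had 9 members in 637 tested peaks (1.41%), at Ebf1, Ebf2, Ncor1, Nfia, Nfib, Nr3c1, Ppara and Rxra, and 21 of its peaks were called higher and 22 lower (median log2 fold change 0.02). The member 30.8 kb from Rxra, the gene of a binding partner of PPARγ, had 6.89 and 4.48 CPM in Rosi3D and 2.79 and 2.30 CPM in Control. The thermogenic list had 6 members in 285 peaks (2.11%), including those at Esrra and Tmem26. The Esrra member, at an estrogen-related receptor gene, had 9.14 and 10.0 CPM in Rosi3D and 4.32 and 6.05 CPM in Control. That of Tmem26, a beige adipocyte marker, had 2.95 and 3.80 CPM in Rosi3D and 1.44 and 0.919 CPM in Control. In the thermogenic list 37 peaks were called higher and 4 lower (median log2 fold change 0.16); separately counted, 31 of its peaks met the rosiglitazone criteria and reached the forskolin limit. Genes of the cyclic AMP response had 4 members in 436 peaks (0.917%), at the phosphodiesterase genes Pde4d and Pde10a and at Nr4a1; edgeR called none of the 4 in Rosi3D against Control, 3 had an unadjusted p below 0.05, and DESeq2 called none. Over the cyclic AMP list 22 peaks were called higher and 6 lower (median log2 fold change 0.10). Insulin and glucose genes had 6 members in 324 peaks (1.85%; 24 called higher, 3 lower; median 0.10) and adipokine genes 1 in 99 (1.01%; 6 higher, 10 lower; median −0.12). Progenitor and matrix genes had 7 in 290 (2.41%; 14 higher, 12 lower; median 0.05) and interferon and inflammation genes 3 in 155 (1.94%; 9 higher, 10 lower; median 0.02). The matrix gene Postn had such a member, with 5.63 and 5.95 CPM in Rosi3D and 1.92 and 1.84 CPM in Control. All 12 lists together held 61 members, 3.86% of the members, while they held 2.32% of all tested peaks.

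**Figure D4:**
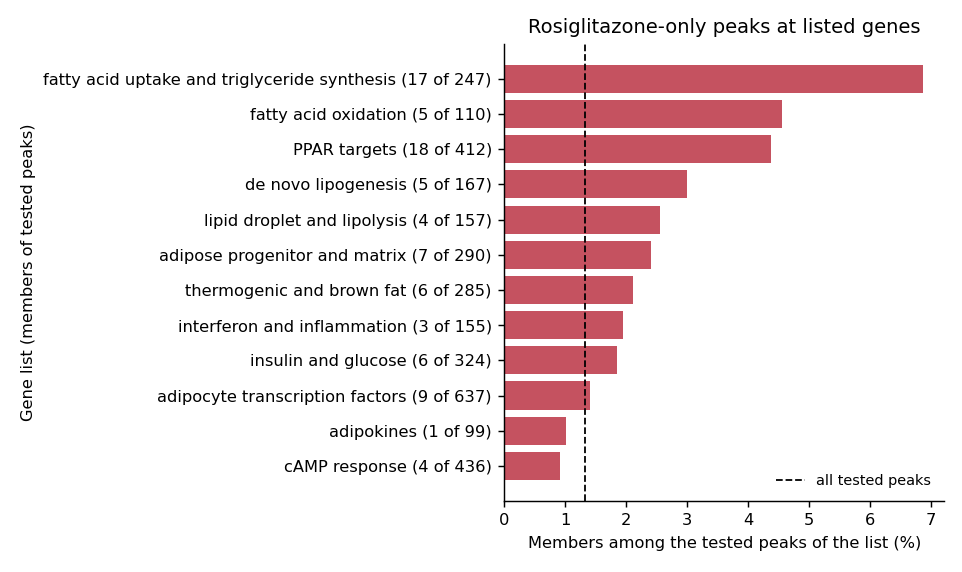
Members as a percentage of the tested peaks assigned to the genes of each of 12 lists, with the numbers of members and tested peaks in the labels. The dashed line marks 1.33%, the share over all tested peaks. The bars run between 0.917% for the cyclic AMP response and 6.88% for fatty acid uptake and triglyceride synthesis, and the lists share genes.

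Several central adipocyte genes had no member. Of all tested peaks 1.33% were members, so an absence over so few peaks says little about a gene. Pparg itself had none among 24 tested peaks, of which none was called higher in Rosi3D and 1 was called lower, and Adipoq, the adiponectin gene, had none among 7. Lpl (20 tested peaks), Cidec (6), Cidea (4), Lep (10) and Pck1 (1) had none either. Cidec had 3 peaks called higher in Rosi3D than in Control and Lpl 2, while Lep had 2 called lower. Ppargc1a, the gene of a coactivator that drives mitochondrial genes, had 52 tested peaks with 11 called higher in Rosi3D, but all 7 that met the rosiglitazone criteria also reached the forskolin limit. Ucp1, which encodes the uncoupling protein of brown fat, had 3 tested peaks, and 1 of them met the rosiglitazone criteria but reached the forskolin limit. Pdk4, a kinase gene that restrains glucose oxidation, had 1 member of 11 tested peaks. Another 5 met the rosiglitazone criteria but reached the forskolin limit.

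Among the better-covered members, 12 with large ratios are plotted. They are the largest ratios, with at most 1 member a gene, among members that were called in the fit, had a Rosi3D mean at or above the members' median and were not at a predicted gene model. Further Cd36 members with ratios as large are given above. Of the 12, 1 was at Cd36, 4 had no protein-coding gene within 50 kb, and the others were assigned to Egfl7, Tmem144, Naaladl2, Arhgap1, Ssbp3, Chd6 and Ror2. The gene-less peak on chromosome 13 (start 16222839, 192 kb from the nearest gene end) had 5.56 and 7.92 CPM in Rosi3D and 0.576 and 1.46 CPM in Control, a log2 fold change of 2.57 (SE 0.410). Another on chromosome 15 (start 59954019, 60.5 kb from a gene) was the strongest of the 12, with 12.2 and 14.3 CPM in Rosi3D and 2.59 and 3.68 CPM in Control (log2 fold change 1.96, SE 0.279), and with 0.537 to 1.57 CPM under forskolin. Forskolin libraries there lay below both Control libraries without overlap. The Egfl7 member at 26588131, downstream of the promoter peak shown above, had 8.16 and 6.81 CPM in Rosi3D and 1.83 and 1.07 CPM in Control (log2 fold change 2.29, SE 0.350). Ror2, a Wnt5a receptor gene, had 4.01 and 5.09 CPM in Rosi3D and 1.34 and 0.766 CPM in Control. Arhgap1, the gene of a Cdc42 GTPase-activating protein, had 5.70 and 5.83 CPM in Rosi3D and 0.768 and 1.84 CPM in Control.

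**Figure D5:**
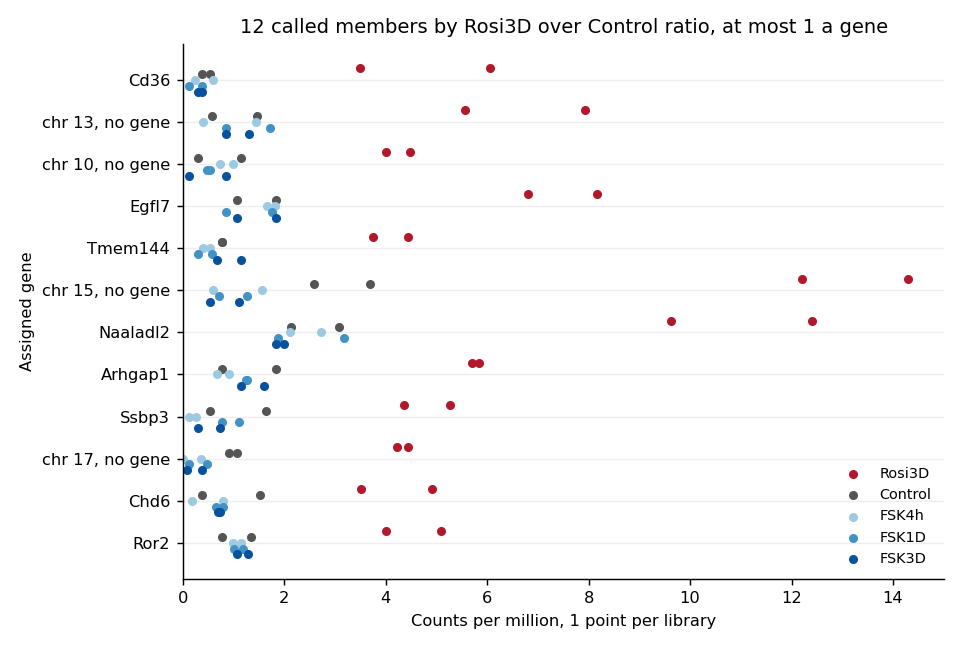
CPM (x axis) in each of the 10 libraries, 1 point a library, for 12 called members ranked by the ratio of Rosi3D to Control, with at most 1 a gene. In each row both Rosi3D points lie to the right of the 8 other points, and the chromosome 15 peak reaches 14.3 CPM.

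Members were spread over many genes. Of the 1579, 1242 were assigned to 1054 protein-coding genes by gene body or by the nearest gene end within 50 kb, and 337 to none. A single member was held by 900 genes, 2 members by 128, 3 by 22 and 4 by 3 genes, namely Frmd4a, Kirrel3 and Cdk14, each with at least 45 tested peaks. In Frmd4a, a gene for a scaffolding protein, the strongest member had 19.9 and 16.6 CPM in Rosi3D and 7.78 and 10.1 CPM in Control (log2 fold change 0.91, SE 0.172). Kirrel3, a cell adhesion gene, had a member with 8.79 and 9.51 CPM in Rosi3D, against 3.07 and 3.14 CPM in Control, and 0.998 to 2.11 CPM under forskolin. When members with centres within 20 kb of the next were joined, 1412 stood alone, 71 groups held 2, 7 held 3 and 1 held 4. The group of 4 was at Cd36 and spanned 14.6 kb, and groups of 3 included Fabp4, Acacb, Lrp5, Frmd4a, Afap1l2 and a second one at Cd36. Chromosome 10 held 141 members, 18.8 per 1000 tested peaks, the highest rate, and chromosomes 7 and 17 had the lowest autosomal rates, 8.01 and 8.09. Promoter windows of chromosome 18, which holds 50 members, were not used in the promoter comparison.

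By position, 64 members had their centre within 1 kb of a gene's end on either side (4.05%, 95% Wilson interval 3.19 to 5.14), 774 lay inside gene bodies (49.0%), 529 outside within 100 kb (33.5%) and 212 further away (13.4%, 11.8 to 15.2). Of all tested peaks 12.4% were at gene ends and 9.57% beyond 100 kb. Tested peaks whose Control level and width lay within the members' quartiles were at gene ends in 4.86% (4.55 to 5.19) and beyond 100 kb in 11.1% (10.6 to 11.6). The members' share at gene ends differed from that of the matched peaks by −0.81 percentage points, with overlapping intervals, and the interval of the members' share beyond 100 kb lay just above that of the matched peaks; neither was tested. Rosiglitazone-opened peaks that reached the forskolin limit had 4.76% at gene ends and 9.90% beyond 100 kb. The median width was 374 bases in members and 368 bases in all tested peaks.

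Peaks next to members were looked at as well. The rule had left them out by their own counts in the same libraries, so their shares are a description. Within 10 kb of a member lay 2728 tested peaks that were not members, of which 148 were called higher in Rosi3D than in Control (5.43%) and 58 lower (2.13%), with a median log2 fold change of 0.12. Over all tested peaks that were not members 2.73% were called higher. The share called higher was 6.69% within 5 kb (90 of 1346 peaks) and 4.92% within 25 kb (316 of 6424). The rosiglitazone criteria were met by 155 of the 2728 neighbours (5.68%), against 3.53% of all tested peaks that were not members. Neighbours share regions and libraries with the members, and these shares were not tested against each other. The 206 neighbours called in either direction (6.57% of all tested peaks were) became 84 without S9, 120 without S10, 88 without S1, 112 without S2 and 96 with DESeq2.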

How the data were processed

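ATAC-seq libraries of MAP cells were analysed from the authors' deposited table of read counts per peak (1 column a library, raw counts, not normalized) with a peak length column. Per the submitters' processing notes, the tools were Bowtie2, MACS2, featureCounts, fastp, Picard, SAMtools and deepTools, on GRCm38 (mm10); versions and settings are not given in the sources used here, nor whether reads were shifted for the transposase. Column names carry the group and not the replicate number of the labels, so libraries of a group had no order or pairing. CPM were computed from column sums. Main fit: edgeR 4.0.16 quasi-likelihood test (robust, TMM, filterByExpr) on all 10 libraries, 118954 of 122984 peaks tested, Benjamini-Hochberg adjustment over all of them; log2 fold changes are on the TMM scale, and 8 comparisons were made. DESeq2 1.42.0, median-of-ratios scaling, column sums alone, no filter, fits of 2 groups and leaving out each library were alternatives. The fitting code was tested on simulated data. Genes came from RefSeq bounds (GRCm38.p6): the protein-coding gene body holding the peak's centre, else the nearest gene end within 50 kb. Total counts of 10410233 to 18935287 limit precision most in the weakest peaks, and the intervals given cover counting error only. Members, gene lists and naming rules were chosen with earlier results of these data known. Named were the 12 largest ratios (at most 1 a gene, predicted models skipped), and the 6 genes and 3 groups with most members. Also named were 14 fixed adipocyte genes, the members of each gene list with the smallest adjusted p, and the peaks nearest each threshold. Members at coding promoters were named too. The 5 largest changes each way between FSK3D and FSK4h were named among members called in that comparison. Of the results these rules name, 1 is not reported here.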

Additional observations from a re-analysis of the deposited data

Results flagged for a closer look

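Members named in the report that differed between forskolin times by edgeR's test of that difference, adjusted over all tested peaks, are given as values. The rule had limited the mean at each of these times, so the adjusted p describe these peaks and support nothing about the members as a set. Where an alternative ended a call, the adjusted p under it is given. At Agap1 FSK1D over FSK4h gave a log2 fold change of 2.34 (adjusted p = 0.0172), and the adjusted p was 0.0666 without S3, 0.208 without S4, 0.138 without S5, 0.0545 without S6 and 0.0648 with DESeq2. At Agap1 FSK3D over FSK4h gave a log2 fold change of 3.00 (adjusted p = 0.000363), a call kept under all alternatives run. The G0s2 peak (start 193270420) had 11.8 and 10.7 CPM at 1 day, 11.2 and 9.52 CPM at 3 days, against 6.64 and 8.17 CPM at 4 hours. At G0s2 FSK1D over FSK4h gave a log2 fold change of 0.54 (adjusted p = 0.0306), and the adjusted p was 0.366 without S3, 0.23 without S5, 0.101 without S6 and 0.127 with DESeq2. At G0s2 FSK3D over FSK4h gave a log2 fold change of 0.49 (adjusted p = 0.0433), and the adjusted p was 0.401 without S3, 0.0523 without S5, 0.0519 without S6, 0.209 without S7, 0.0688 without S8, 0.0571 without S10, 0.139 with DESeq2 and 0.068 in a fit of the 2 groups. At Fyn FSK1D over FSK4h gave a log2 fold change of 1.95 (adjusted p = 0.00282), and the adjusted p was 0.0542 without S4. At Fyn FSK3D over FSK4h gave a log2 fold change of 2.40 (adjusted p = 5.3e-05), a call kept under all alternatives run. At Irf1 FSK1D over FSK4h gave a log2 fold change of 1.90 (adjusted p = 0.000279), a call kept under all alternatives run. At Irf1 FSK3D over FSK4h gave a log2 fold change of 1.99 (adjusted p = 6.31e-05), a call kept under all alternatives run. The Ppara peak (start 85720356) had 8.41 and 5.53 CPM at 3 days, against 4.91 and 4.24 CPM at 4 hours. At Ppara FSK3D over FSK4h gave a log2 fold change of 0.62 (adjusted p = 0.0398), and the adjusted p was 0.0972 without S3, 0.237 without S4, 0.488 without S7, 0.0503 without S10, 0.154 with DESeq2 and 0.0618 in a fit of the 2 groups.

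The Nr4a1 peak (start 101278902), at an immediate early gene of the cyclic AMP response, had 2.18 and 2.06 CPM at 1 day, against 0.465 and 1.03 CPM at 4 hours. At Nr4a1 FSK1D over FSK4h gave a log2 fold change of 1.42 (adjusted p = 0.041), and the adjusted p was 0.404 without S3, 0.183 without S5, 0.161 without S6 and 0.151 with DESeq2. The Postn peak (start 54413355) had 2.18 and 2.01 CPM at 1 day, 1.90 and 1.92 CPM at 3 days, against 0.996 and 0.545 CPM at 4 hours. At Postn FSK1D over FSK4h gave a log2 fold change of 1.39 (adjusted p = 0.0241), and the adjusted p was 0.299 without S4, 0.14 without S5, 0.105 without S6 and 0.0798 with DESeq2. At Postn FSK3D over FSK4h gave a log2 fold change of 1.31 (adjusted p = 0.0265), and the adjusted p was 0.275 without S4, 0.0677 without S7, 0.109 without S8, 0.0769 with DESeq2 and 0.066 in a fit of the 2 groups. The Ssbp3 peak (start 107013400) had 0.765 and 1.11 CPM at 1 day, against 0.266 and 0.121 CPM at 4 hours. At Ssbp3 FSK1D over FSK4h gave a log2 fold change of 2.21 (adjusted p = 0.0301), and the adjusted p was 0.0942 without S3, 0.264 without S4, 0.0606 without S5, 0.244 without S6, 0.103 with DESeq2 and 0.0588 in a fit of the 2 groups. The Acacb peak (start 114146032) had 10.0 and 8.13 CPM at 3 days, against 5.31 and 6.48 CPM at 4 hours. At Acacb FSK3D over FSK4h gave a log2 fold change of 0.62 (adjusted p = 0.0249), and the adjusted p was 0.269 without S3, 0.173 without S7 and 0.117 with DESeq2. The Rasa3 peak (start 13633182), at a Ras GTPase-activating protein gene, had 1.47 and 1.21 CPM at 1 day, 1.78 and 1.69 CPM at 3 days, against 0.0664 and 0.484 CPM at 4 hours. At Rasa3 FSK1D over FSK4h gave a log2 fold change of 2.15 (adjusted p = 0.014), and the adjusted p was 0.305 without S3, 0.112 without S5, 0.056 without S6 and 0.0504 with DESeq2. At Rasa3 FSK3D over FSK4h gave a log2 fold change of 2.58 (adjusted p = 0.000917), and the adjusted p was 0.0826 without S3.

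The following members were lower at the later time. The chromosome 10 peak (start 23600700) had 0.235 and 0.528 CPM at 1 day, 0.307 and 0.153 CPM at 3 days, against 1.13 and 1.39 CPM at 4 hours. At chromosome 10 start 23600700 FSK1D over FSK4h gave a log2 fold change of −1.73 (adjusted p = 0.0204), and the adjusted p was 0.0622 without S3, 0.163 without S4, 0.276 without S5, 0.0544 with DESeq2 and 0.0696 in a fit of the 2 groups. At chromosome 10 start 23600700 FSK3D over FSK4h gave a log2 fold change of −2.38 (adjusted p = 0.00229), a call kept under all alternatives run. The Rnf217 peak (start 31544703), at an E3 ubiquitin ligase gene, had 0.737 and 0.460 CPM at 3 days, against 1.66 and 2.54 CPM at 4 hours. At Rnf217 FSK3D over FSK4h gave a log2 fold change of −1.78 (adjusted p = 0.00385), and the adjusted p was 0.102 without S4 and 0.0592 without S8. The chromosome 10 peak (start 95746347) had 0.614 and 0.307 CPM at 3 days, against 1.39 and 1.69 CPM at 4 hours. At chromosome 10 start 95746347 FSK3D over FSK4h gave a log2 fold change of −1.70 (adjusted p = 0.0184), and the adjusted p was 0.0511 without S3, 0.118 without S4, 0.168 without S8, 0.061 with DESeq2 and 0.0544 in a fit of the 2 groups. At Epha3 FSK3D over FSK4h gave a log2 fold change of −2.51 (adjusted p = 0.00994), and the adjusted p was 0.143 without S4, 0.0657 without S7 and 0.0693 without S8. The Gm765 peak (start 98310692) had 0.246 and 0.691 CPM at 3 days, against 1.39 and 1.45 CPM at 4 hours. At Gm765 FSK3D over FSK4h gave a log2 fold change of −1.64 (adjusted p = 0.0308), and the adjusted p was 0.107 without S3, 0.112 without S4, 0.348 without S7, 0.0888 with DESeq2 and 0.0856 in a fit of the 2 groups. The Kirrel3 peak (start 34525738) had 1.18 and 0.792 CPM at 1 day, against 2.32 and 1.88 CPM at 4 hours. At Kirrel3 FSK1D over FSK4h gave a log2 fold change of −1.15 (adjusted p = 0.0483), and the adjusted p was 0.294 without S3, 0.0988 without S4, 0.105 without S5, 0.364 without S6, 0.0666 without S9, 0.0634 without S10, 0.108 with DESeq2, 0.0781 in a fit of the 2 groups and 0.0715 with column sums. The cause of these differences was not tested.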

How the results depend on the processing

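No result with a sign changed direction under any alternative run. With DESeq2 the members called were 255 in Rosi3D against Control (630 by edgeR), 123 in FSK1D against Control (193), 15 in FSK1D against FSK4h (54) and 38 in FSK3D against FSK4h (77), and the called neighbours were 96 (206). Scaling by column sums alone gave 787 members called in Rosi3D against Control, 122 in FSK1D against Control and 1 in FSK3D against FSK1D (0). It moved the median of all tested peaks by 0.15 for FSK1D, 0.10 for Rosi3D and 0.10 for FSK3D, all over Control, on the log2 scale. A fit of the 2 groups gave 893 in Rosi3D against Control. Leaving out single libraries gave 228 to 740 members called in Rosi3D against Control, 193 to 352 in FSK4h, 97 to 210 in FSK1D and 87 to 158 in FSK3D against Control, 948 to 1373 in Rosi3D against FSK3D, 10 to 65 in FSK1D against FSK4h, 28 to 81 in FSK3D against FSK4h, 0 to 7 in FSK3D against FSK1D, and 84 to 242 neighbours. Neighbours within 5 kb gave 107 calls and within 25 kb 473. The rule itself gave 1039 members with a forskolin limit of 1.1 times Control and 2512 with 1.5, 3231 with a rosiglitazone threshold of 1.5 and 844 with 2, and 1406 to 2290 with single libraries left out. With TMM-scaled CPM it gave 1421, of which 1143 were among the 1579. Against matched peaks the members' share differed by −0.81 percentage points at gene ends and 0.80 in gene bodies, against −8.35 and 3.30 for all tested peaks. Of 49 named peaks called in Rosi3D against Control, 26 kept the call under every alternative. The cause of these shifts was not tested. No paired analysis was possible because the columns carry no replicate numbers that tie libraries across groups. With 2 libraries a group and a median of 1.69 Control CPM, single weak members are imprecise.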
